A study of Mus musculus with 4 samples.

Results

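Open chromatin of a 20 Mb window of mouse chromosome 14, from 40 to 60 Mb, was described across 4 ATAC-seq libraries of fetal liver at embryonic day 14.5. In this assay a transposase cuts accessible DNA and the cut fragments are sequenced. 2 libraries came from hemogen (Hemgn) KO livers and 2 from WT livers. The gene's product is a nuclear protein known from developing blood cells. The sources used here do not state the kind of KO allele, the strain, or whether livers were pooled or litters shared, so the spread between replicates may be technical. The authors' 4 peak lists were merged wherever peaks shared at least 1 bp. The regions were chosen by measured values, namely by having a peak in both libraries of at least 1 genotype and a summit inside the window. The rule gave 322 regions of 36003 on all chromosomes, and 902 more lay on chromosome 14 outside the window. Because presence of peaks chose the regions, and the window was proposed with results of these data known, the genotype differences below are descriptions with no test. With 2 against 2 libraries an exact two-sided permutation test could in any case give no p below 0.333.

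The window holds several clusters of tandemly duplicated genes. The ribonuclease A superfamily has here the angiogenins (Ang genes), secreted ribonucleases known for acting on transfer RNA and on blood vessel growth, the eosinophil-associated ribonucleases (Ear genes), which are cationic granule proteins known mainly from eosinophils, and other Rnase genes. Farther along lie the mast cell proteases (Mcpt genes), serine proteases stored in mast cell granules, beside the granzyme genes. Pnp and Pnp2 encode purine nucleoside phosphorylases, enzymes that split purine nucleosides into base and sugar phosphate. Between these clusters lie the variable and joining segments of the T cell receptor alpha and delta chains, and many housekeeping genes.

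Promoter sequences of the copies that name the regions show how alike the duplicated genes are. They are from RefSeq, build GRCm38.p6, run from 250 bases before to 50 bases after a gene's start, and are written 5′ to 3′ on the gene's strand. Capitals mark matches, on either strand, to the GATA word, which is GATA after an A or T and before an A or G, or to CCNCNCCC, the CACCC-box word read by Krüppel-like factors; overlapping matches are counted each. Of the 30 genes that name the exclusive regions, 26 have a promoter in the table. The promoters of Ang6 (chr14:44006369-44006668, minus strand) and Ang5 (chr14:43956819-43957118, plus strand) were identical over all 300 bases and hold 1 GATA word each.
Ang6: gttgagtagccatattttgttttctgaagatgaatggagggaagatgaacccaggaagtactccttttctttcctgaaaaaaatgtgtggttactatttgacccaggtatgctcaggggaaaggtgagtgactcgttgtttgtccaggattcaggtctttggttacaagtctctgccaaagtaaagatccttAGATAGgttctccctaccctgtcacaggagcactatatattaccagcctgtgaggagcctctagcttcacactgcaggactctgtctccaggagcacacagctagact
Ang5: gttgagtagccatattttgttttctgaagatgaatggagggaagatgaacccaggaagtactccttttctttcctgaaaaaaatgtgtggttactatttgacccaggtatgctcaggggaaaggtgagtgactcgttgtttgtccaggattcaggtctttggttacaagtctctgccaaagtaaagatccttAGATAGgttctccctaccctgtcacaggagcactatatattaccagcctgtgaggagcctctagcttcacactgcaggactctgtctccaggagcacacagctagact

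The promoter of Ear10 (chr14:43923547-43923846, minus strand) was 91.4% identical to that of Ear1 (chr14:43819590-43819889, minus strand) and 89.5% identical to that of Ear2 (chr14:44102404-44102703, plus strand) in a global alignment, and Ear1 and Ear2 were 97% identical. These 3 are shown because near-identical copies make the placement of reads uncertain. None of them holds a GATA or a CACCC-box word.
Ear10: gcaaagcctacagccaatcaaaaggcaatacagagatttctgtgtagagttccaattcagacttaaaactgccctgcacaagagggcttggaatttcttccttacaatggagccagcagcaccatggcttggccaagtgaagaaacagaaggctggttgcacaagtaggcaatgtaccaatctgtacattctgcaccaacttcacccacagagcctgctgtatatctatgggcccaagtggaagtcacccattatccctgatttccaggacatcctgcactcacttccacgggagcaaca
Ear1: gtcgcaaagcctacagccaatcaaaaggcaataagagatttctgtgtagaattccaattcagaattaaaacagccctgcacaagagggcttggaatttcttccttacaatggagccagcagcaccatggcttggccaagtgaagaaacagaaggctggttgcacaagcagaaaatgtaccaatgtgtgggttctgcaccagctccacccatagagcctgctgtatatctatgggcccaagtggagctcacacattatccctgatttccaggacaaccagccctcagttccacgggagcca
Ear2: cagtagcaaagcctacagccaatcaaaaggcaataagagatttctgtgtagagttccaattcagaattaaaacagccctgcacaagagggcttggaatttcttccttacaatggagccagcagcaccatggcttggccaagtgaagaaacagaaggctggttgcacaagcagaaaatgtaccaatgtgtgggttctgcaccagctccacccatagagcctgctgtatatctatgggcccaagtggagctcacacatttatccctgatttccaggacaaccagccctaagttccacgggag

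Over the 21 pairs among 7 promoters of the Ear1, Ear2, Ear6, Ear10, Ear14, Rnase2a and Rnase2b genes the median identity was 77.3%, with a range of 43.1% to 97%. The 72 pairs of promoters from different families ranged from 40.2% to 48.2%, and all 6 pairs with Ear14 lay inside that range, at 43.1% to 45.6%. Among the Mcpt genes the highest identity was 81%, between Mcpt1 and Mcpt4, but the median of 6 pairs was 44%, inside the range between families. The Ang promoter was likewise only 43.9% to 45.6% identical to those of Ang4, Ang5 and Ang6.

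4 further promoters are shown because a region shares bases with them. That of Rec8 (chr14:55617916-55618215, plus strand), a cohesin subunit of meiosis, lay with all 300 bases in a region with peaks only in the KO libraries. That of Dydc1 (chr14:41072661-41072960, plus strand) shared 186 bases with a region found only in the WT libraries and holds 5 CACCC-box words. The promoter shared by Ang and Rnase4 (chr14:51090827-51091126, plus strand) and that of Pnp (chr14:50944053-50944352, plus strand) lay at regions present in all 4 libraries. A GATA word occurred in 29.8% and CCNCNCCC in 49.5% of 32851 promoters of the same length, so these matches are descriptions of single sequences. The median promoter had 7 CpG dinucleotides, against 18 in both the Rec8 and the Dydc1 promoters and 1 in the Ang6 promoter. Positions of genes and regions were set side by side on the assumption that the lists use the same assembly; the sources used here do not name the build behind the lists.
Rec8: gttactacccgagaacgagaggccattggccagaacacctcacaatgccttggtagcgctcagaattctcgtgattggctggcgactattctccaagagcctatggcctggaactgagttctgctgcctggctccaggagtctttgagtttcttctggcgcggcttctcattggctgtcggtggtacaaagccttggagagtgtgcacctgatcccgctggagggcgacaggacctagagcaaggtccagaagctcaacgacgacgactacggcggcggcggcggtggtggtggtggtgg
Dydc1: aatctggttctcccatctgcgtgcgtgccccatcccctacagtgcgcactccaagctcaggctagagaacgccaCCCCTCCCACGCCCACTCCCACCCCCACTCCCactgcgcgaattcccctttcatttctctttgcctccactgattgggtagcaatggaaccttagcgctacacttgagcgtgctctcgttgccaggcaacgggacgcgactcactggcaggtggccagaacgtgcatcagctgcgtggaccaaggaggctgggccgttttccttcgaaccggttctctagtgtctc
Ang and Rnase4: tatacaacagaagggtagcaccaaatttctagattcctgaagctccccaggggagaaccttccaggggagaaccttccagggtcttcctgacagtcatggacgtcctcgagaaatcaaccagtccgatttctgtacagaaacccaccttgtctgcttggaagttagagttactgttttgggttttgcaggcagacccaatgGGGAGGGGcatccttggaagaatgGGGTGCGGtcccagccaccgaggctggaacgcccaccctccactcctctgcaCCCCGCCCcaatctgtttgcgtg
Pnp: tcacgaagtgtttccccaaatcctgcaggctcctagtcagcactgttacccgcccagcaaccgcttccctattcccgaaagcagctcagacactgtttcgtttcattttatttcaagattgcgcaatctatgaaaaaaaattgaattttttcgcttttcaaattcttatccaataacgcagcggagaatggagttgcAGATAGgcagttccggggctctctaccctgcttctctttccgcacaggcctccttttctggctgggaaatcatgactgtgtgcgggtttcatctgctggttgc

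The 4 lists differed in length. Hemgn KO replicates 1 and 2 had 35426 and 43018 peaks on the chromosomes, and WT replicates 1 and 2 had 47858 and 34181. Of these, 298 and 360 KO peaks and 386 and 291 WT peaks had summits in the window, which is 0.841% and 0.837% of the KO lists and 0.807% and 0.851% of the WT lists. Depth itself is not stated in a peak list. The background recovered from each list, in fragments, was 2.49 and 3.8 in KO and 5.67 and 2.29 in WT, and stands for relative depth only if the peak caller's settings were alike. The tissue label was checked against markers of red cells and hepatocytes: 9 of 9 erythroid markers, among them Klf1 and Epor, had a peak within 1 kb of a gene boundary in every library. Hepatocyte markers had one at 3 and 3 of 5 genes in KO and at 4 and 4 in WT, with Afp at none. Markers of the cells that the Ear and Mcpt genes are known from were nearly all without one. For eosinophils, 0 of 5 markers had a boundary peak in any library, and for mast cells and basophils only Kit, which stem and progenitor cells also use, had one in all 4 libraries, with the other 6 at 0. Neutrophil markers had boundary peaks at 2 and 3 of 7 genes in KO and at 4 and 3 in WT. S100a8 and Camp had them in both WT libraries and in no KO library, Mpo in Hemgn KO replicate 2 alone, and Ltf in both KO libraries and WT replicate 1. Prtn3 had one in all 4 libraries, and Elane and S100a9 had none.

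Most regions of the window were shared, and a minority separated the genotypes. Of the 322 regions, 224 (69.6%) had a peak in all 4 libraries, against 76.3% of all regions. Peaks in both KO libraries and in no WT library, here called KO-only, were found at 22 regions, or 6.83% of the window against 2.16% of all regions. The reverse pattern, called WT-only, was found at 20 regions, or 6.21% against 3.39%. On the rest of chromosome 14 the shares were 2.66% KO-only (24 of 902) and 3.99% WT-only (36 of 902). The KO-only count was 62 if Hemgn KO replicate 1 was left out and 37 if replicate 2 was, and it was 46 and 25 if WT replicates 1 and 2 were. The WT-only count was 23 and 47 on leaving out Hemgn KO replicates 1 and 2, and 31 and 78 on leaving out WT replicates 1 and 2. With 1 library fewer the rule is easier to meet, and over all chromosomes the shares then ran from 1.95% to 10.7% for KO-only and from 3.86% to 17.4% for WT-only. The remaining 56 regions had a peak in 3 libraries. In 23 of these WT replicate 2 lacked the peak and in 27 Hemgn KO replicate 1 lacked it, the library with the fewer peaks in each genotype, while WT replicate 1 and Hemgn KO replicate 2 lacked it in 3 regions each.

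**Figure D1:**
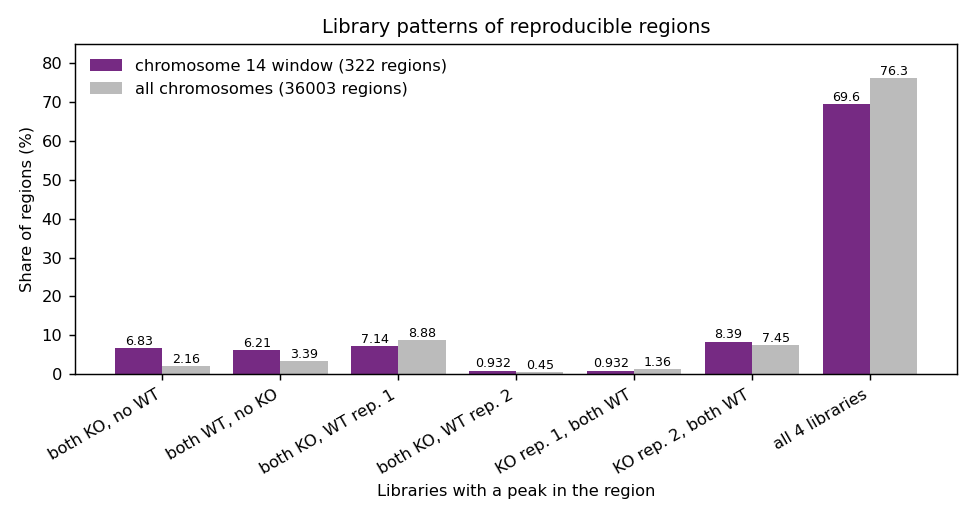
Share of regions, in percent, by the set of libraries with a peak, for the 322 regions of the window (purple) and all 36003 regions (grey). The bars for both KO and no WT library stand at 6.83% and 2.16%, those for both WT and no KO library at 6.21% and 3.39%, and those for all 4 libraries at 69.6% and 76.3%.

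Regions of the window stood higher in their lists than the rest of the series, those exclusive to a genotype included. A region's percentile in a library is the share of that library's peaks with a lower or equal fold enrichment, the authors' value for each peak. Its rank is the lower percentile of the 2 libraries of a genotype, and the higher of these where both genotypes have it. Percentiles of the same regions differed between libraries. Over the 27473 regions with a peak in all 4, the medians were 61.1 and 67.7 in KO and 70.9 and 59.5 in WT. The median rank was 32.8 for the KO-only regions of the window, against 15.5 for all 778 KO-only regions, and 35.0 for the WT-only regions, against 16.1 for all 1219. A rank of at least 50 was reached by 7 KO-only regions of the window, or 2.17% of its regions, against 0.0778% of all regions, which is 28 in the whole series. It was reached by 5 WT-only regions, or 1.55%, against 0.119%, which is 43 in the whole series. The higher ranks were shared by the other classes, with a median of 26.1 for regions in 3 libraries, against 18.6 of all, and of 71.6 for regions in all 4, against 63.2 of all. The rest of chromosome 14 held 1 such KO-only region and 4 such WT-only regions.

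Exclusive regions lay in groups along the window. From 43 to 45 Mb, 7 of 8 regions were exclusive, while from 54 to 56 Mb, the densest part, 7 of 107 were and 81 were shared by all libraries. From 42 to 43 Mb no library had a peak. 4 stretches, chosen after their values were seen, hold 24 of the 42 exclusive regions, so this count is no measure of grouping. Between Ear10 and Ang6 (43879992 to 44046998, 167 kb) all 7 regions were exclusive, 2 KO-only and 5 WT-only. Between Bmp4, which encodes a bone morphogenetic protein, and Cdkn3, a cell cycle phosphatase gene (46386931 to 46598066, 211 kb), 4 of 9 regions were KO-only and 0 were WT-only. Between Gmfb and Atg14 (811 kb), 6 of 35 were WT-only and 1 was KO-only. Between Tep1 and Gm7247 (525 kb), which includes Pnp2 and the main Rnase cluster, 6 of 25 were KO-only and 0 were WT-only.

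**Figure D2:**
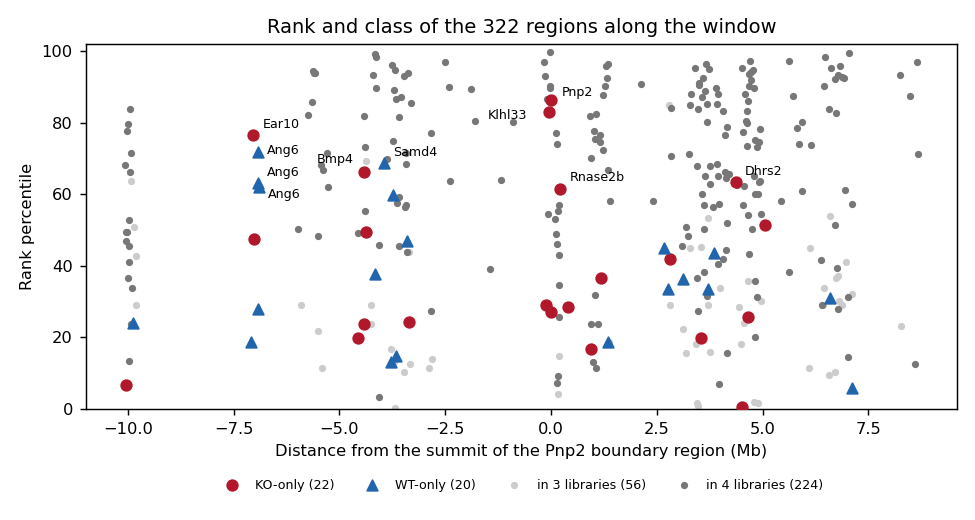
Rank percentile of each of the 322 regions against its distance, in Mb, from the summit of the Pnp2 boundary region. Large red circles are the 22 KO-only and blue triangles the 20 WT-only regions, small points are regions in 3 or 4 libraries, and exclusive regions with a rank of at least 60 carry the name of the nearest gene.

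The KO-only region of highest rank lay at the boundary of Pnp2 (chromosome 14, 50955958 to 50956864). Its percentiles were 86.5 and 92.2 in the KO libraries, with no WT peak within 11.0 kb. A second KO-only region lay inside Pnp2 (50958519 to 50958957), with percentiles of 27.2 and 30.3. The neighbouring gene Pnp had a boundary peak in every library (50944245 to 50945445), at the 98.9 and 98.5 percentiles in KO and the 99.9 and 99.9 percentiles in WT, the highest rank of any region in the window. The region 6.79 kb from Klhl33, which encodes a kelch-like protein (50903967 to 50904596), had percentiles of 83.1 and 83.7 in KO, and the boundary of Klhl33 itself had a peak in all 4 libraries.

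Further KO-only regions of high rank lay at duplicated genes or far from genes. A region 1.66 kb from Ear10 and upstream of its start (43925121 to 43926056), stood at the 76.5 and 87.2 percentiles in KO. A region 146 kb from Bmp4 (46535906 to 46536795) stood at 66.7 and 66.3. A region 82.9 kb from Dhrs2, a short-chain dehydrogenase gene (55323819 to 55324871), stood at 63.3 and 69.0. The region 13.5 kb from Rnase2b (51176199 to 51176655) stood at 61.6 and 62.7, and the one 0.158 kb from Mcpt2 (56020604 to 56021607) at 51.3 and 71.3. In percentile the 2 KO libraries were close at Bmp4 and Rnase2b and farther apart at Ear10 and Mcpt2. Relative to each library's background they were close at Ear10 as well, as given below. The rest of the 10 of highest rank were a region 182 kb from Cdkn3 (49.6 and 55.4), a second region near Ear10 (55.9 and 47.5) and a region among the T cell receptor segments, 459 kb from Dad1 (42 and 62.7). The other 12 KO-only regions had ranks from 0.511 to 36.6 and lay nearest to Supt16, Tep1, Gm7247, Pnp2, Rec8, Atg14, Bmp4 (2 regions), Rem2, Ndrg2, Tspan14 and Dhrs4. At Rec8 and Dhrs4 a WT peak lay 0.321 and 0.554 kb away, so the KO-only stretch there lay beside one with WT peaks.

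The WT-only region of highest rank was 1 of 4 near Ang6, all within 17.9 kb of each other. It lay 23.4 kb from the gene's nearest boundary (44034791 to 44035141) and stood at the 85.3 and 71.8 percentiles in the WT libraries. The other 3 stood at 76.4 and 63.2 (44031994 to 44032285), at 77.0 and 62 (44046460 to 44046998) and at 54.1 and 27.9 (44029052 to 44029477). WT replicate 1 stood above WT replicate 2 at all 4, as its median did over all shared regions. No KO peak lay within 44.9 kb of any of the 4 regions. A region inside Samd4, which encodes an RNA-binding repressor of translation (47017351 to 47019066), stood at 73.4 and 68.7 and was, at 1716 bp, the longest of all 1219 WT-only regions. No KO peak lay within 67.7 kb of it.

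The other WT-only regions lay inside or between other genes. The region 17.7 kb from Wdhd1, a DNA replication factor gene (47222742 to 47223415), stood at 59.8 and 59.8 in WT. The region inside Atg14, which encodes a subunit of the lipid kinase complex that starts autophagosomes (47555120 to 47555611), stood at 72.3 and 46.9. The rest of the 10 of highest rank were 2 regions nearest to Dad1 but 601 and 165 kb from it, among the receptor segments (66.9 and 44.9, and 60.5 and 36.4), a region inside Rnf212b (49.4 and 43.6) and a region 7.02 kb from Gmfb (58.2 and 37.7). The other 10 had ranks from 5.93 to 33.5 and included a region 42.7 kb from Ear10 (43879992 to 43880222), at 20.1 and 18.6. They lay nearest to Dad1, Acin1, Eef1akmt1, Ang6, Dydc1, Ear10, Tox4, Socs4, Gch1 and Fgf9.

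Peak calls depend on depth, so the fragments behind each exclusive region were set beside the fewest fragments that the other genotype's libraries needed for a call. Where the background was at the level of the whole library, the weakest peak called held 9 and 12 fragments in the KO lists and 15 and 9 in the WT lists. A higher local background raises these minimums. KO-only regions had a median of 21.5 and 32 fragments at the summit in the KO libraries, with ranges of 12 to 128 and 14 to 211. WT-only regions had a median of 44.5 and 18.5 fragments in the WT libraries, with ranges of 21 to 290 and 11 to 111. The lower end of both classes was therefore near the minimums, and the upper end was far above them. An absent call sets no level, since a peak list gives no value where no peak was called.

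Fragments divided by each library's background, here called the scaled height, put the libraries on a nearer scale. At Pnp2 the scaled height was 51.4 and 55.5 in the KO libraries, from 128 and 211 fragments. At Samd4 it was 51.1 and 48.5 in the WT libraries, from 290 and 111 fragments. The KO-only region beside Bmp4 had 34.1 and 38.9, that beside Klhl33 had 20.9 and 16.8, and the first beside Ear10 had 20.1 and 19.2. At all 5 the replicates were close, and the values were well above the lowest scaled height called at the library background, which was 3.61 and 3.16 in the KO lists and 2.65 and 3.93 in the WT lists. The 3 Ang6 regions of highest rank had scaled heights of 15.3 and 13.5, 13.4 and 11.8, and 12 and 10.9. The Mcpt2 region had 8.03 and 11.6 and the Rnase2b region 10 and 8.42, values near the median of 8.63 and 8.42 for all KO-only regions of the window. The local background at Pnp2 was 3.30 and 3.43 times that of its library, that at the Bmp4 region 3.70 and 5.0 times, and that at Samd4 5.32 and 4.95 times.

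**Figure D3:**
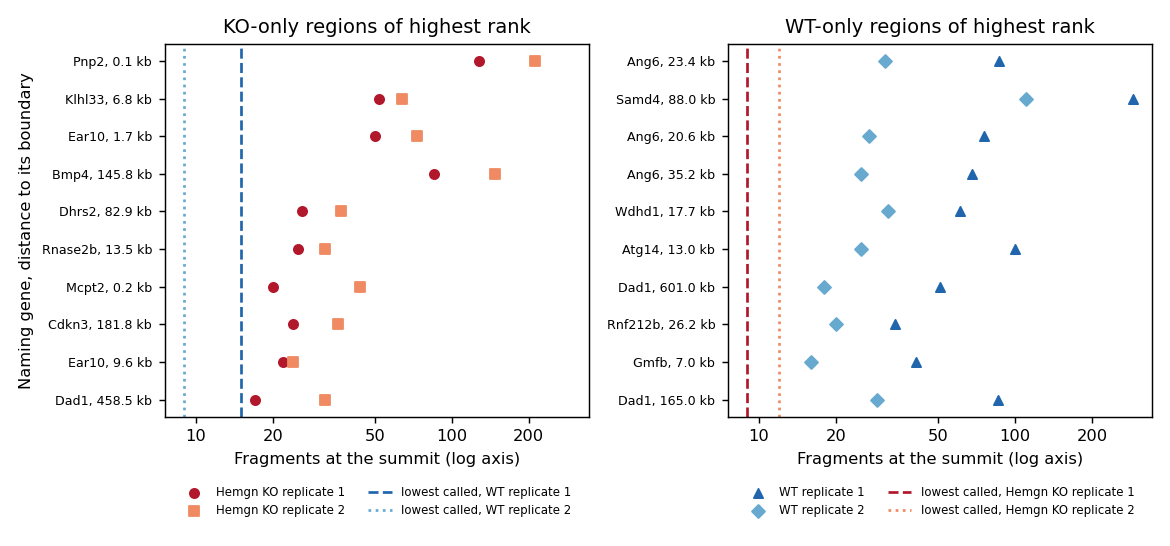
Fragments at the summit, on a log axis, of the 10 KO-only (left) and 10 WT-only (right) regions of highest rank, labelled by naming gene and distance. Symbols are the 2 libraries with a peak and vertical lines the fewest fragments called at the library background in the other genotype. The values run from 17 to 211 fragments in KO and from 16 to 290 in WT, right of lines that stand at 15 and 9 in the left panel and at 9 and 12 in the right panel.

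The ribonuclease and protease families held 23 of the 322 regions and 9 of the 42 exclusive ones. A region was given to the gene with the nearest boundary, within 100 kb, and only 3 of the 9 lay within 10 kb, so the names give position and not a target. Of the 8 regions named for Ang genes, 4 were WT-only, all near Ang6, and 4 were in all libraries, all near Ang. Of the 3 named for Ear10, 2 were KO-only and 1 was WT-only. Of the 11 named for Rnase genes, 1 was KO-only (Rnase2b), 2 were in 3 libraries and 8 in all 4. The single Mcpt region was KO-only.

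Most of these genes had no boundary peak in any library. The share of all genes with a boundary peak was not computed, so these counts have no baseline. Among the 5 Ang genes in the window, a boundary peak was found at Ang in all 4 libraries and at the other 4 in none. None of 5 Ear genes had one. Among 10 Rnase genes, Rnase1 and Rnase4 had one in all 4 libraries and 6 had none. Among 5 Mcpt genes, Mcpt2 had one in each KO library but in neither WT library, and Mcpt1, Mcpt4, Mcpt8 and Mcpt9 had none. Granzymes and other granule proteases, the neighbours of the Mcpt genes, had none at 9 of 10 genes, and Cma1 had one in WT replicate 1 only. The single region named for these neighbours was in all 4 libraries. The KO-only Mcpt2 region was the only one named for an Mcpt gene, with no WT peak within 76.6 kb. As given above, mast cell markers other than Kit had no boundary peak in any library.

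The shared Ang and Rnase regions held the highest fragment counts of these families. The region 1.66 kb from Ang (51088580 to 51089817) had 290 and 391 fragments in KO and 471 and 183 in WT, at percentiles of 73.9 and 75 in KO and 74.7 and 63.0 in WT. Fragments there were in the order of the libraries' backgrounds, and the percentiles of the genotypes overlapped. Its scaled heights did not, at 116 and 103 in KO and 83.1 and 79.9 in WT. The region over the shared promoter of Ang and Rnase4 (51090181 to 51091104) ranked low in each list, at 6.22 and 9.19 in KO and 7.93 and 7.18 in WT, although it held 88 and 126 fragments in KO and 129 and 73 in WT. Its scaled heights were 35.3 and 33.2 in KO and 22.8 and 31.9 in WT. The other 2 shared Ang regions stood between 43.9 and 51.9 in KO and between 33.5 and 70.6 in WT. Among the shared Rnase regions the highest rank, 56.9, was that of the Rnase1 boundary region described below. Next, at a rank of 55.2, came a region near Rnase6, whose product is an antimicrobial ribonuclease (51127656 to 51128402). It stood at 61.2 and 55.2 in KO and 63.1 and 52.7 in WT.

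Around Rnase1, the gene of the secreted pancreatic-type ribonuclease, the percentiles of the 4 shared regions varied widely between replicates. WT replicate 1 stood above WT replicate 2 at all 4, as its median did over all shared regions. The region at the Rnase1 boundary (51143576 to 51144593) stood at 30.6 and 51.4 in KO and 68.8 and 56.9 in WT. The next (51149009 to 51149816) stood at 15.7 and 13.3 in KO and 50.1 and 25.6 in WT, with -9.93 points between the nearest values, KO minus WT. The other 2 stood at 40.6 and 61.4 in KO and 54.4 and 43 in WT (51142292 to 51142864), and at 21.3 and 45.7 in KO and 59.8 and 34.7 in WT (51150415 to 51150887). The first 2 were lower in both KO libraries than in either WT library, and the last 2 overlapped. The 2 family regions found in 3 libraries, near Rnase6 (51128983 to 51129780) and Rnase1 (51152267 to 51152689), lacked a peak in Hemgn KO replicate 1. Rnase12 (51063095 to 51064189) stood at 39.3 and 46.8 in KO and 58.8 and 53.0 in WT, and Rnase13 (51941255 to 51941754) at 3.85 and 28.4 in KO and 54.9 and 13.1 in WT.

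**Figure D4:**
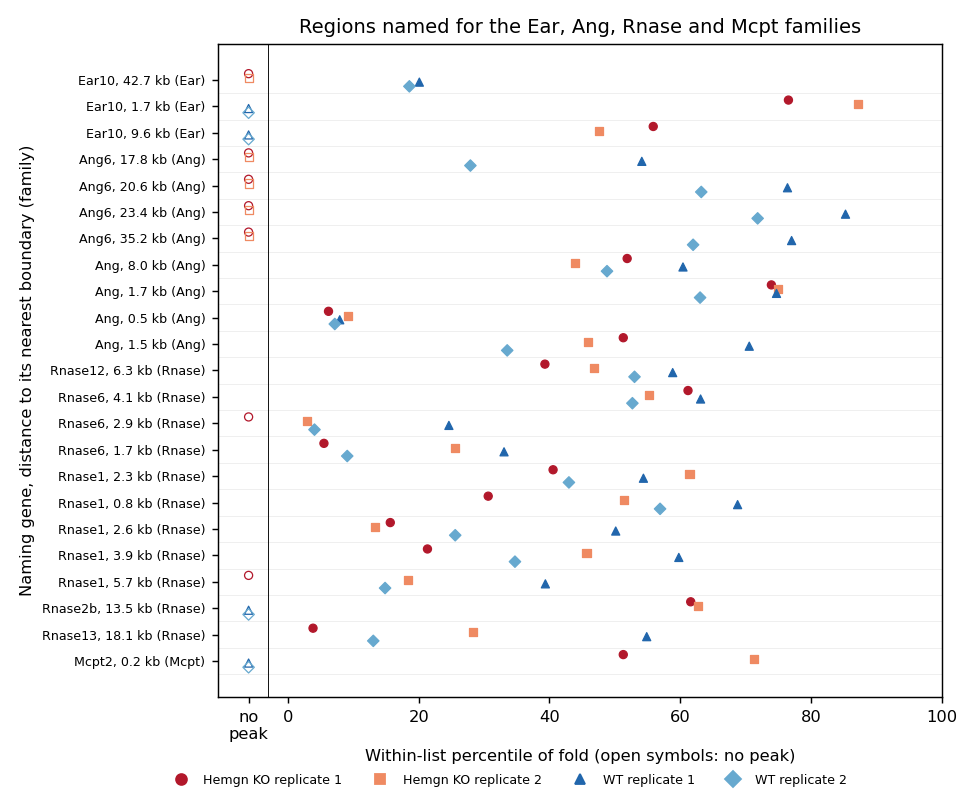
Percentile of fold within each library's list for the 23 regions named for the Ear, Ang, Rnase and Mcpt families, from the lowest to the highest position within each family. Filled symbols are libraries with a peak, and open symbols at the left are libraries with none. The 9 exclusive regions are those with both symbols of one genotype open.

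Genes around Pnp, of RNA processing and chromatin, and of the proteasome mostly had a boundary peak in all libraries. The share over all genes was not computed for comparison. Of 9 neighbouring genes around Pnp, which include the DNA repair genes Apex1 and Parp2 and others of unlike function, 7 had a boundary peak in all 4 libraries, Pnp2 had one in KO only and Ccnb1ip1 in WT replicate 1 only. The 10 regions named for them were 4 KO-only, at or near Pnp2 (2 regions), Klhl33 and Tep1, and 6 in all 4 libraries. At Parp2, a poly-ADP-ribose polymerase gene, the percentiles were 93.2 and 94.7 in KO and 92.0 and 88.8 in WT. Of 15 genes of RNA processing and chromatin, 11 had a boundary peak in all libraries, such as Chd8, a chromatin remodeller gene, at 95.4 and 97.0 in KO and 97.2 and 96.0 in WT. Their 27 regions were 1 KO-only, 2 WT-only, 3 in 3 libraries and 21 in all 4. Of 6 proteasome and ubiquitin-like genes 5 were open in all libraries, with Psmb5, the chymotrypsin-like subunit of the proteasome, at 96.0 and 96.2 in KO and 96.4 and 96.5 in WT. These examples stood within a few points of each other, but other members varied more: the region at Parp4 stood at 41.1 and 38.2 in KO and 55.3 and 26.8 in WT, and the nearer one at Zmym2 at 72.6 and 79.7 in KO and 91.4 and 80.1 in WT.

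Within 100 kb, the naming limit, genes of blood cell regulation and of other tissues gave 1 exclusive region of each kind. Exclusive regions farther off were not counted here, such as those nearest to Dad1 and those 140 and 146 kb from Bmp4. Of 11 regulators and surface genes of blood cells, 8 had a boundary peak in all libraries. Among the 24 regions named for them within that limit, 0 were exclusive, 4 were in 3 libraries and 20 in all 4. Irf9, a factor of the interferon response, stood at 83.3 and 86.8 in KO and 87.7 and 86.2 in WT. Of the 13 regions named for 5 developmental factor genes within that limit, 1 was KO-only and 1 WT-only. The surfactant, cardiac myosin and gap junction genes had 6 regions in all, of which 1 was in all 4 libraries and 5 were in 3.

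In the 224 regions shared by all libraries, the genotypes were mostly close. The median difference in percentile, KO mean minus WT mean, was -0.60 points, with quartiles of -5.35 and 2, and over all 27473 such regions the median was -0.58. KO means were the higher in 101 regions (45.1%, against 43.7% of all). Both KO percentiles lay below both WT percentiles in 50 regions (22.3%, against 13.6% of all) and above both in 22 (9.82%, against 9.98%). A gap of at least 10 points between the nearest values was found with KO lower in 8 regions (3.57%, against 1.31% of all) and with KO higher in 3 (1.34%, against 0.997%). On the rest of chromosome 14 these gaps were found in 1.64% and 1.34% of 670 shared regions. With 1 library left out, the window's share was 1.17 to 2.18 times that of all regions for lower KO percentiles and 0.655 to 1.17 times for higher ones. On the scale of scaled heights KO was lower without overlap in 41 regions and higher in 32. These heights could be had in all 4 libraries for only 143 of the regions, since peaks with a −log10 p of 300 or more gave none. The counts are thus not on the same set as those by percentile, and they were not taken over all chromosomes.

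The largest gaps with lower KO percentiles lay inside Tspan14 and near Cebpe. Inside Tspan14, a tetraspanin gene (40935266 to 40936325), the percentiles were 16.0 and 3.71 in KO and 53.9 and 49.6 in WT. At 2.13 kb from Cebpe, which encodes a transcription factor of granulocyte maturation (54714036 to 54715170), they were 8.79 and 30.8 in KO and 73.1 and 63.0 in WT. Scaled heights there were 6.43 and 8.16 in KO and 22.2 and 23.6 in WT, which did not overlap either. Both measures come from the fold of the same peaks, so the second is no separate support. Neutrophil markers did not all move with this region: as given above, S100a8 and Camp had boundary peaks only in the WT libraries, Mpo only in a KO library, and Ltf in more KO than WT libraries. The part of such cells in the Cebpe result was not tested. In a whole tissue, fewer open cells and less opening per cell cannot be told apart. The 2 other Cebpe regions were closer between the genotypes, at 63.5 and 66.9 in KO and 80.6 and 67.9 in WT (54705589 to 54706503), and at 15.9 and 16.6 in KO and 27.2 in WT replicate 1 alone (54712664 to 54713270).

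The other regions with lower KO percentiles were spread over the window. At 9.36 kb from Nfatc4, a calcium-regulated transcription factor gene (55814986 to 55815658), they were 33.9 and 44.9 in KO and 73.2 and 76.8 in WT. At Rnf17, a germ cell gene (56402610 to 56403006), they were 33.9 and 28.4 in KO and 60.1 and 58.1 in WT. A region among the receptor segments (53072568 to 53073350) stood at 72.7 and 67.9 in KO and 90.9 and 96.9 in WT. A region 149 kb from Bmp4 (46539634 to 46540664), 2.84 kb from the KO-only region described above, stood at 42.9 and 64.6 in KO and 81.9 and 82.7 in WT, but its scaled heights overlapped, at 20.5 and 35.3 in KO and 32.3 and 34.9 in WT. 4931414P19Rik (54583628 to 54584104) and a region 103 kb from Dhrs2 (55343720 to 55344918) had differences between the nearest values of -17.2 and -10.5 points, KO minus WT. The next 2 in size, the Rnase1 region given above and one near Olfr1513 (52343399 to 52343918), lay just under the threshold, at -9.93 and -9.61 points.

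Higher KO percentiles by at least 10 points were found in 3 shared regions, against the 8 with lower ones. If WT replicate 1 was left out the balance turned, with 20 higher and 9 lower. It turned over all chromosomes too, at 13.5% higher and 1.82% lower, against 8.85% and 3.98% in the window. With any other library left out lower ones were the more frequent. Inside Mapk1ip1l (47321742 to 47322487) the percentiles were 57.5 and 66.5 in KO and 36.5 and 21.1 in WT. Inside Slc7a7, an amino acid transporter gene (54409956 to 54410654), they were 36.6 and 53.3 in KO and 24.1 and 9.12 in WT. At Armh4 (49783065 to 49783534) they were 66.3 and 64.1 in KO and 53.6 and 41.5 in WT. Scaled heights of these 3 did not overlap either, with 8.68 to 11.6 in KO and 4.41 to 7.42 in WT. In all, 10 of the 11 regions with a gap of at least 10 points also had scaled heights that did not overlap. Scaled heights are solved from the same fold values that gave the percentiles, so this is no independent check. Such separation was common, being found with KO lower in 41 and KO higher in 32 of the 143 shared regions with these heights. The next 7 were 4931414P19Rik (54605891 to 54606435), just under the threshold at 9.72 points, and regions named for Lats2, Hnrnpc, Mmp14, Slc39a2, Fbxo34 and Cdkn3, at 2.46 to 7.53 points.

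**Figure D5:**
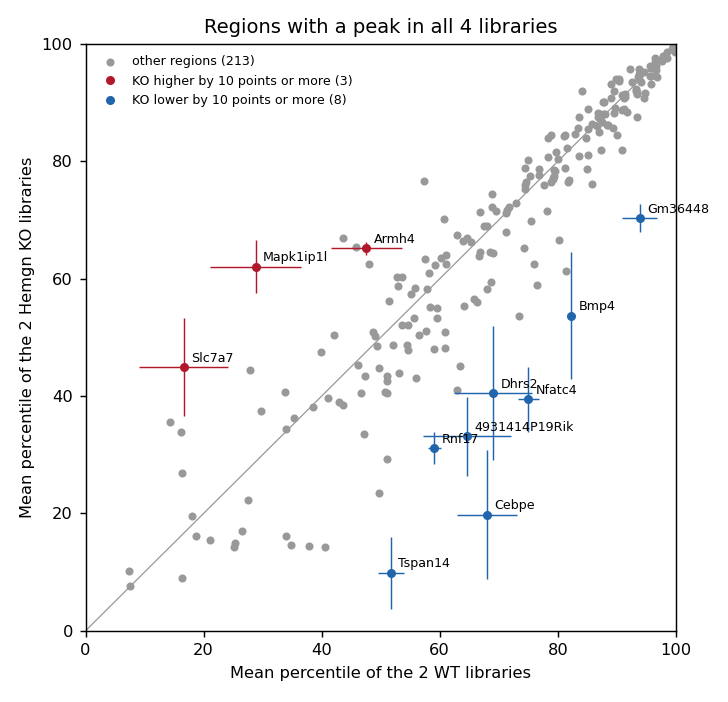
Mean percentile of the 2 Hemgn KO libraries against that of the 2 WT libraries for the 224 regions with a peak in all libraries; the grey line marks equal values. Coloured points are the 8 regions with KO lower and the 3 with KO higher by at least 10 points between the nearest values, with lines from the lower to the higher replicate.

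Among the regions in 3 libraries, some stood high where they were present. A region among the T cell receptor segments (53757224 to 53758022) stood at 85 and 90.0 in KO, with 72 and 100 fragments, and at 52.4 in WT replicate 1, with 36, and had no peak in WT replicate 2. A region 163 kb from Cdkn3 (46596846 to 46598066) stood at 69.2 and 83.4 in KO and at 52.4 in WT replicate 1. The receptor segments as a whole, 176 in the gene table, held 15 regions, of which 1 was KO-only, 3 were WT-only, 4 were in 3 libraries and 7 in all 4. T cell markers had boundary peaks at 2 and 2 of 5 genes in KO and at 2 and 1 in WT, with Lck in both KO libraries only, Cd3g in WT replicate 1 only, Cd3d in all 4 and Cd3e and Cd2 in none, and their part in these regions was not tested.

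Few exclusive regions shared a base with an annotated promoter. Pnp2 and Mcpt2 had no annotated promoter, so the KO-only regions 0.082 and 0.158 kb from their boundaries could not be counted there. The shares at promoters were not computed over all chromosomes. A base of an annotated promoter window lay in 115 of the 224 regions in all 4 libraries (51.3%), in 6 of the 56 in 3 libraries (10.7%), in 1 of the 22 KO-only regions (the Rec8 promoter printed above) and in 1 of the 20 WT-only regions (the Dydc1 promoter). By distance, 5 KO-only regions (22.7%) and 2 WT-only regions (10%) lay within 1 kb of a gene boundary, against 8.74% and 8.04% of such regions in the whole series. Outside protein-coding genes lay 13 KO-only regions (59.1%, against 37.8% of all) and 11 WT-only regions (55%, against 36.1%). From any protein-coding gene boundary 7 exclusive regions were over 100 kb away. These include the 1 KO-only and 3 WT-only regions among the T cell receptor segments, which were not counted as genes. Exclusive regions were also short, with a median of 483 bp for KO-only and 418.5 bp for WT-only regions, against 1011.5 bp for regions in all 4 libraries. This held over all chromosomes too, where the medians were 445, 401 and 949 bp. The nearest peak of the other genotype was a median of 10.4 kb away for KO-only and 10.2 kb for WT-only regions.

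The outermost regions of the window were shared by all libraries. The last before 40 Mb lay near Nrg3, with peaks in 3 libraries, and the first inside it near Sh2d4b, at percentiles of 69.8 and 68.1 in KO and 69.0 and 65.9 in WT. The last inside lay near Shisa2, at 71.3 and 82.5 in KO and 88.3 and 70.1 in WT, and the first beyond 60 Mb near Atp8a2, at 51.3 and 62.7 in KO and 58.2 and 53.5 in WT. A narrower window from 42 to 58 Mb held 21 KO-only and 18 WT-only regions.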

How the data were processed

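Omni-ATAC libraries of whole fetal liver, 2 of Hemgn KO and 2 of WT embryos, were represented by the authors' peak lists, 1 per library. The submitters' processing notes name MACS2 2.2.7.1, Bowtie2 2.3.5, Picard 2.21.4 and SAMtools 1.9. The sources used here do not state their roles, their settings or the genome build. The deposited lists hold for each peak a fold enrichment over local background (a ratio), −log10 p and −log10 q values and a display score, in the layout of MACS2, and the weakest peak had a q of 0.0489. Per the labels' sample names each list is 1 replicate, and no pooled list was used; peak names inside the lists carry replicate numbers 3 and 4, and the labels' 1 and 2 were followed. Of 160627 peaks, 144 off the chromosomes were left out.

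Peaks sharing 1 bp were merged across lists. Because lists of different depth are not on 1 scale, fold was used as a percentile within its list. Fragments and local background were solved from fold and −log10 p (tolerance 0.005, for −log10 p under 300), and tested on simulated data. A library's background is its most frequent local background. Scaled height assumes alike settings and fragment lengths. Genes came from a RefSeq table of GRCm38.p6 (21774 protein-coding genes), with boundary peaks within 1 kb and naming within 100 kb. Promoter identities are global alignments. Of the red cell markers, 1 is not reported here.

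The regions and gene lists were chosen with earlier results of these data known, and no genotype difference was tested. Named in full are the 10 exclusive regions of highest rank per genotype, all of the 4 families and, among shared regions, the 10 largest gaps per direction. Joining gaps, cover, list length, q, rank, gap size, window edges and each library left out were varied. Python 3.11.15 with pandas 2.3.3, scipy 1.17.1 and Biopython 1.88 was used.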

Additional observations from a re-analysis of the deposited data

How the results depend on the processing

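The counts of KO-only (22) and WT-only (20) regions stayed within 1.5 times under joining over gaps, 50% cover, lists shortened to equal length by fold (22 and 21) or by q (20 and 20), a −log10 q of at least 5 and other window edges. With the upper 50% of each list by fold, KO-only regions numbered 8 (4.21%, against 1.36% of all). Regions in all 4 libraries then numbered 139 (73.2%, against 81%). Shared regions with higher and lower KO percentiles then numbered 0 and 1 (0% and 0.719%, against 0.152% and 0.238%). Leaving out 1 library gave 25 to 62 KO-only, 23 to 78 WT-only and 226 to 251 regions in all remaining libraries, and 5 to 20 higher and 9 to 42 lower ones. Without WT replicate 1 higher ones (20) outnumbered lower ones (9), as they did over all chromosomes (13.5% against 1.82%). With 1 library left out, the window's shares relative to all regions were 0.655 to 1.17 times for higher and 1.17 to 2.18 times for lower ones, against 1.34 and 2.73 times with all libraries. Over all these settings the window's share was 1.29 to 4.45 times that of all regions for KO-only and 1.11 to 3.97 times for WT-only. Lower KO percentiles numbered 5 with 50% cover (2.51%, against 1.03% of all). With a −log10 q of at least 5 they numbered 4 (1.99%, against 0.926%) and higher ones 1 (0.498%, against 0.571%). A gap of 5 points gave 8 higher (3.57%, against 2.53%) and 16 lower regions (7.14%, against 3.76%). A gap of 20 points gave 1 higher (0.446%, against 0.167%) and 4 lower (1.79%, against 0.153%). Naming within 10 kb left 3 of the 9 exclusive family regions. Fewer peaks or libraries enter several of these settings by construction; beyond that the cause was not tested. No paired analysis was possible because the counts come from no test. A peak list gives no value below its threshold, so absence of a peak is a limit of depth and calling, and copies with near-identical sequence limit where reads can be placed.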

Other observations

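A further 146 merged regions of the window had a peak in both libraries of neither genotype and are not among the 322. Of these, 122 had a peak in 1 library, with 15 in Hemgn KO replicate 1, 39 in Hemgn KO replicate 2, 58 in WT replicate 1 and 10 in WT replicate 2, and the library with the longer list held more in each genotype. The other 24 had a peak in 1 library of each genotype, 19 of them in Hemgn KO replicate 2 and WT replicate 1, and 5 in Hemgn KO replicate 1 and WT replicate 1.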
